A study of Mus musculus with 11 samples.

Results

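The 5-hydroxymethylcytosine (5hmC) landscape of day 2 epiblast-like cells (EpiLC) was described in 6 of the 11 capture libraries of the series. The 6 libraries are the 3 replicates of TET_WT EpiLC and the 3 replicates of DNMT_WT EpiLC, both sampled on day 2 of differentiation. TET_WT is the wild-type parent of a line without Tet1, Tet2 and Tet3, and DNMT_WT is the wild-type parent of a line without Dnmt1, Dnmt3a and Dnmt3b. Both carry all 6 of these genes, and both were converted to EpiLC from mouse embryonic stem cells kept in 2i/Lif medium. The signal was asked to be high or low in both lines, and no contrast between lines or between days was made. Each genotype is represented by 1 parental line. Whether a line's 3 replicates came from separate cultures is not labelled, so the tests measure the spread between these libraries, which may be technical. Genomic DNA holds no marker of cell state, so the EpiLC label could not be checked against expression.

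5hmC arises when TET dioxygenases oxidise the methyl group of 5-methylcytosine, which DNA methyltransferases place mainly at CpG dinucleotides. In pluripotent cells it is known from gene bodies, enhancers and the borders of CpG-rich promoters, and the centres of CpG islands are usually unmethylated and therefore offer no substrate. EpiLC model the formative epiblast, a stage at which the genome is being methylated anew after the naive state.

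In HMCP-seq a kit captures DNA fragments that carry 5hmC, and the fragments are sequenced. The deposited value is the log2 of reads per kilobase and library size (RPKM) in tiles of 2 kb. Values are relative to each library's total, so the overall amount of 5hmC per cell is not visible. No input library was used here, and copy number or the share of a tile to which reads can be mapped was not corrected. More DNA of a region and more 5hmC on it cannot be told apart.

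Promoter sequences from RefSeq (GRCm38.p6, 250 bases before to 50 bases after the gene start) are printed for 4 genes because the signal at gene starts varied with CpG content, as described further down. The genes were chosen after their values were seen. Capitals mark every CpG, which reads the same on both strands, and 95.2% of the 17274 protein-coding genes with a promoter in the table hold at least 1 in the window. Dnmt3a, a de novo methyltransferase, has 47 CpGs in its richest promoter (chr12:3806910-3807209, plus strand), and the tile that holds this start carried little signal. Dnmt3l, its catalytically inactive partner, has 6 (chr10:78042037-78042336, plus strand), and its start tile lay above the rest of the gene. Il17c, a cytokine of the IL-17 family and among the highest genes in both lines, has 5 (chr8:122421770-122422069, plus strand). Tecrl, which encodes an enzyme-like protein of the endoplasmic reticulum and lies among the lowest autosomal genes, has 3 (chr5:83355146-83355445, minus strand).
Dnmt3a: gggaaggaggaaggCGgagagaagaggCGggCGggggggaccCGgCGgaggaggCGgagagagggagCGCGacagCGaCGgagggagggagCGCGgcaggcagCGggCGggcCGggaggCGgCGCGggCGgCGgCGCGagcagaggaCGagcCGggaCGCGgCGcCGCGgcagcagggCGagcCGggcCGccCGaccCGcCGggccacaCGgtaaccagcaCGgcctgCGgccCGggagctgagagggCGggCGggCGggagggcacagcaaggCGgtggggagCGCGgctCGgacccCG
Dnmt3l: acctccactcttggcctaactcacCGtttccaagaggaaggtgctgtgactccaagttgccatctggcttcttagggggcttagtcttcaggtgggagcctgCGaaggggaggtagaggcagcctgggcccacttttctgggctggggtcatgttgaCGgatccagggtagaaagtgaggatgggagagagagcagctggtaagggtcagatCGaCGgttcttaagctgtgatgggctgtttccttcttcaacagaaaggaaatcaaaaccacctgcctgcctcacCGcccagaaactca
Il17c: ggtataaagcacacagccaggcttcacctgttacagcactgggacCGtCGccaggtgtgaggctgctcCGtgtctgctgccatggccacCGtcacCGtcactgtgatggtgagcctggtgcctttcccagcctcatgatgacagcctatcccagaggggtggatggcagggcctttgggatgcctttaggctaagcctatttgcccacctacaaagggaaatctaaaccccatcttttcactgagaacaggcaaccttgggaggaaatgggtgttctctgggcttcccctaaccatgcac
Tecrl: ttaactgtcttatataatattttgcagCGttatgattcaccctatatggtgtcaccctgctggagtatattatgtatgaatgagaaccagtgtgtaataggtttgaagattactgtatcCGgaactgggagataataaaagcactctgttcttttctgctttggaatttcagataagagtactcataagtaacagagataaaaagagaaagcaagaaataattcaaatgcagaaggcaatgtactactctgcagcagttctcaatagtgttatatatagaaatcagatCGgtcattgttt

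The TET_WT libraries held 28084687, 20223129 and 27381614 reads, and the DNMT_WT libraries held 41395754, 16468352 and 29645979. Between 20.7% and 29.0% of tiles had no read in a library, and the median tile had 3 to 7 reads. A tile without reads is listed at the lowest value of its library, which lies between -5.31 log2 RPKM in DNMT_WT replicate 1 and -3.98 in replicate 2, so the levels of nearly empty genes follow depth. Signal was concentrated: the highest 10% of tiles took 49.9% to 54.0% of the reads of a library and the lower 50% took 3.89% to 4.99%.

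A gene's level is the mean log2 RPKM over its span plus 2 kb on either side. Across the 21187 protein-coding genes ranked, the order of genes was much alike in both lines. Levels ran from -4.44 at the lowest 1% to 1.99 at the highest 1% in TET_WT, with a median of -0.23, and from -4.53 to 2.32 in DNMT_WT, with a median of -0.09. Pearson's r between the line means was 0.973 and Spearman's rho 0.965, and r between single libraries was 0.957 to 0.965 across lines and 0.981 to 0.984 within a line. These are descriptions across genes, which are not independent replicates, and the libraries share mappability, tile boundaries and base composition. The median gene differed by 3.60 percentiles between lines, and 590 genes (2.78%) differed by more than 20.

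A gene was called high in both lines when its level exceeded the median gene of the library by more than 0.5 log2 units in each line (limma treat, Benjamini-Hochberg adjusted p under 0.05 over all genes), and low in the mirror case. This held for 6102 genes high (28.8%) and 6991 low (33.0%), and 8094 were neither. Of the 1059 genes in the top 5% of each line, 747 (70.5%) were shared, and of the 1059 in the bottom 5%, 736 (69.5%). At the upper edge, Tradd lay just inside with 1.53 in TET_WT and 1.86 in DNMT_WT and Dnah2 just outside with 1.54 and 1.82. At the lower edge, Olfr945 lay just inside with -4.29 and -4.05 and Hsf3 just outside with -3.98 and -4.10. High and low are relative to a typical gene: the library medians over genes were -0.24 to -0.06, and those over tiles outside annotated genes were -3.09 to -2.54. Measured against the tiles outside genes, 15873 genes were high and 1292 low, so a gene described here as low may still lie above the space between genes.

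**Figure D1:**
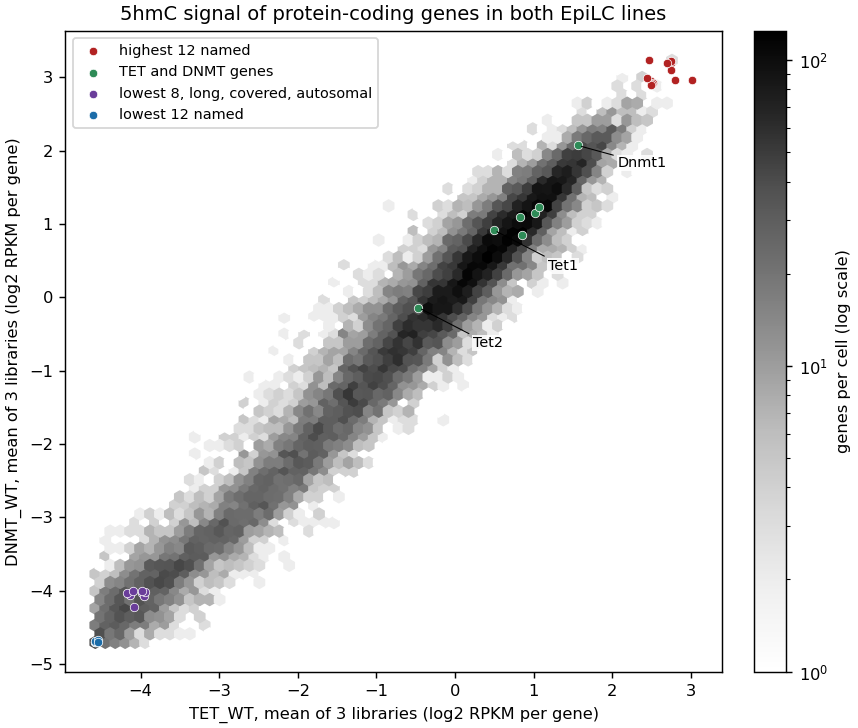
Level of each protein-coding gene in DNMT_WT (vertical axis) against TET_WT (horizontal axis), each the mean log2 RPKM of 3 libraries, with the number of genes per hexagonal cell in grey on a log scale. Genes lie along 1 diagonal (r = 0.973), the 12 highest named genes sit above 2.4 in both lines, and the methyltransferase and TET genes lie in the upper part except Tet2. The 12 lowest named genes and the 8 lowest long autosomal genes with nearly all tiles tested lie at the lower left.

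The 12 highest named genes included Il17c, the gene of an epithelial cytokine. Il17c (chr8:122422020-122423639) had 2.72, 2.76 and 2.77 log2 RPKM in TET_WT and 3.24, 3.17 and 3.28 in DNMT_WT, 2.97 and 3.32 above the median gene (SE 0.03, limma adjusted p = 2.66e-09 and 1.31e-09). All 6 libraries lay far above the median gene, and the replicates of a line differed by about 0.1. The 12 genes were picked by their ranks in these same libraries, so neither the p-values nor this agreement is separate support. Its neighbour Cyba, the membrane subunit of the phagocyte NADPH oxidase, reached 2.70 ± 0.05 and 3.20 ± 0.06 (SD, n = 3 each), and the extended spans of both genes overlap. Gpha2, the alpha subunit of the glycoprotein hormone thyrostimulin (chr19:6226401-6227768), had 2.77, 2.68 and 2.82 in TET_WT and 3.24, 3.27 and 3.07 in DNMT_WT. Insl3, the Leydig cell hormone that guides testis descent, had 2.42, 2.53 and 2.46 in TET_WT and 3.18, 3.25 and 3.27 in DNMT_WT, the highest level of any gene in DNMT_WT.

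Ipo4, an importin that carries cargo such as histones into the nucleus, was the highest of all genes in TET_WT, with 3.05, 3.02 and 2.98, and had 3.05, 2.92 and 2.94 in DNMT_WT (chr14:55625400-55635868, 8 tiles). Angptl8, a secreted regulator of triglyceride metabolism, reached 2.80 ± 0.13 in TET_WT and 2.97 ± 0.11 in DNMT_WT. The prostaglandin E receptor gene Ptger1, the photoreceptor fascin Fscn2, the potassium channel gene Kcnh3, the calcium homeostasis modulator Calhm2, the sperm acrosome gene Spaca4 and Enkd1, an enkurin-domain gene, completed the 12, at 2.44 to 2.75 in TET_WT and 2.90 to 3.10 in DNMT_WT. Of the 12, 5 lie on chromosome 8. Most of these genes are short and rest on 3 to 11 tiles, so the extended flanks weigh heavily in their level.

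Long genes allow a level over many tiles. The highest genes with at least 25 tested tiles were Piezo1, a mechanosensitive ion channel, Sec14l1, a lipid-transfer-like protein, Atp9a, a P4-type ATPase of membranes, Cit, the citron kinase of cytokinesis, and Lrp1, an endocytic receptor. Piezo1 (chr8:122481698-122551329, 32 tiles) had 2.37, 2.38 and 2.43 in TET_WT and 2.78, 2.77 and 2.73 in DNMT_WT. The other 4 had 2.13 to 2.22 in TET_WT and 2.41 to 2.56 in DNMT_WT. The replicates of these 5 genes differed by an SD of at most 0.10. The genes were picked by their ranks in the same libraries, so this spread is no separate support for their place.

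At the other end, the 12 lowest named genes had next to no reads in the tested tiles. They are Btbd35f8, Samt1d, Cldn34c2 and Btbd35f6 on the X chromosome, the Prame-like genes Pramel42, Pramel47 and Pramel4, the secretoglobins Scgb2b30 and Scgb1b10, the urinary protein gene Mup18, the cornified-envelope gene Sprr2a1 and Skint9. Btbd35f8 had 0 reads in all 6 libraries, and its levels were the lowest values the libraries can show. Most belong to families of similar copies, where reads may map to several places. Pramel42 rested on 3 of 9 tiles and Skint9 on 3 of 27. Of the 736 genes in the bottom 5% of both lines, 233 (31.7%) had fewer than 95% of their tiles tested, against 5.19% of all genes. In the top 5% of both lines the same held for 126 of 747 (16.9%), so incomplete coverage was not limited to low genes. The part of mappability in these low levels was not tested.

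Low signal was also found in long genes with nearly complete coverage. Il1rapl1, a synaptic organiser on the X chromosome (chrX:86740937-88115948), was low over 666 of its 690 tiles, with -4.39, -4.03 and -4.41 in TET_WT and -4.83, -3.78 and -4.39 in DNMT_WT, and its reads numbered 324 to 822 per library over 1375 kb. Aff2 on the same chromosome, a gene mutated in an intellectual disability in humans, averaged -4.29 in both lines. Skint5, Skint6 and Skint11, relatives of butyrophilins that guide skin T cells, completed the 5 lowest long genes. That choice required at least 25 tested tiles but set no limit on coverage, and the Skint genes had under 95% of their tiles tested. Among autosomal genes with at least 25 tiles and at least 95% of them tested, a selection made after the values were seen, the lowest 8 were the signal-regulatory genes Sirpb1a, Sirpb1b and Sirpb1c, the transporter gene Slco6c1, Tecrl, the contactin-associated genes Cntnap5b and Cntnap5c, and Cd226, an adhesion receptor of lymphocytes. Tecrl (chr5:83278122-83355195) had -4.32, -3.99 and -4.23 in TET_WT and -4.29, -3.61 and -4.19 in DNMT_WT over all 41 tiles. Cntnap5b had -4.03, -3.82 and -4.03 in TET_WT and -4.47, -3.67 and -4.06 in DNMT_WT over 361 of 362 tiles. In each of these genes the shallowest library, DNMT_WT replicate 2, had the highest value, and the lowest value of a library limits how low a gene can be.

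The genes of the enzymes themselves lay mostly above the median gene. Dnmt1, the maintenance methyltransferase (chr9:20907206-20959888), had 1.50, 1.68 and 1.52 in TET_WT and 2.11, 2.00 and 2.10 in DNMT_WT, which placed it at percentile 95.4 and 97.5 (limma adjusted p = 6.21e-08 and 1.42e-08). Dnmt3a had 1.03, 1.09 and 1.09 in TET_WT and 1.17, 1.30 and 1.23 in DNMT_WT. Dnmt3b averaged 0.83 ± 0.08 and 1.09 ± 0.04, and Dnmt3l 0.85 ± 0.07 and 0.86 ± 0.15 (SD, n = 3 each). Tet1, the main TET enzyme of stem cells, had 0.43, 0.46 and 0.60 in TET_WT and 0.94, 0.91 and 0.91 in DNMT_WT, and Tet3 1.02 ± 0.05 and 1.16 ± 0.04. These 6 genes were high in both lines, Tet1 with limma adjusted p = 0.00239 and 1.13e-05 and no longer when each gene was set against the median of its own chromosome. With a minimum difference of 1 Tet1, Dnmt3b and Dnmt3l lost their call. Tet2 was not called in either line: it had -0.50, -0.54 and -0.35 in TET_WT and -0.05, 0.07 and -0.43 in DNMT_WT, around percentile 44.7 and 48.9, and its mean over both lines turned from slightly below to slightly above the comparison level with linear means, voom or its own chromosome as the level.

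Within several of these genes the start differed from the body. The start tile of Dnmt3a had -4.75, -4.12 and -4.71 in TET_WT, at or next to the value of a tile without reads, and -1.57, -0.83 and -2.67 in DNMT_WT, against a mean of 1.43 and 1.54 over the tiles 4 to 20 kb downstream. Dnmt1 had -2.90 in TET_WT and -2.10 in DNMT_WT at its start, against 1.56 and 1.99 downstream, and Tet1 had -3.81 and -1.76 against 0.35 and 0.96. The opposite order was seen in Dnmt3b, with 1.82 and 1.38 at the start against 1.02 and 1.22, and in Dnmt3l, with 1.95 and 1.45 against 0.84 and 0.97. Of these 5, Dnmt3l has few promoter CpGs, as printed above, and Dnmt3b has 30, close to the 33 of Dnmt1.

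Protein-coding genes carried more 5hmC signal than the space between genes. Tiles in coding genes averaged -0.94 ± 0.01 in TET_WT and -1.04 ± 0.10 in DNMT_WT, tiles in other annotated genes only -1.61 ± 0.03 and -1.77 ± 0.15, and tiles outside genes -2.36 ± 0.05 and -2.53 ± 0.22 (SD, n = 3 each). Within a library, coding tiles lay 1.45 ± 0.09 above tiles outside genes (SD, n = 6), with 1.35 to 1.59 in single libraries. All 6 libraries agreed in sign, which gives p = 0.03125 in the exact two-sided sign-flip permutation test, the smallest that 6 libraries allow (adjusted p = 0.0417 over 8 class differences). Coding tiles make up 41.8% of the tiles tested and held 59.7% to 61.7% of the reads, and 46.0% of them were high in both lines by the same limma test per tile against the median tile, against 32.3% of all tiles. Low in both lines were 14.1% of coding tiles and 36.1% of tiles outside genes, against 25.7% of all tiles.

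Outside genes the signal declined with distance from the nearest gene. Tiles within 10 kb averaged -1.66 in TET_WT and -1.77 in DNMT_WT, those at 10 to 30 kb -2.13 and -2.32, those at 30 to 100 kb -2.78 and -2.98, and those over 100 kb away -3.39 and -3.55. The nearest class lay 1.76 ± 0.11 above the farthest (SD, n = 6, exact permutation p = 0.03125), in every library. Only 4.63% of the farthest tiles were high in both lines, against 32.3% of all tiles. Tiles at gene ends, which hold the first or last base of a coding gene, averaged -0.69 and -0.47, against -0.96 and -1.09 for tiles inside genes. This difference of 0.44 ± 0.19 was positive in all 6 libraries (exact permutation p = 0.03125, adjusted p = 0.0417 for both), at 0.27 in TET_WT and 0.62 in DNMT_WT. At equal depth, with reads thinned to the shallowest library, these 3 differences were 1.33, 1.57 and 0.42.

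**Figure D2:**
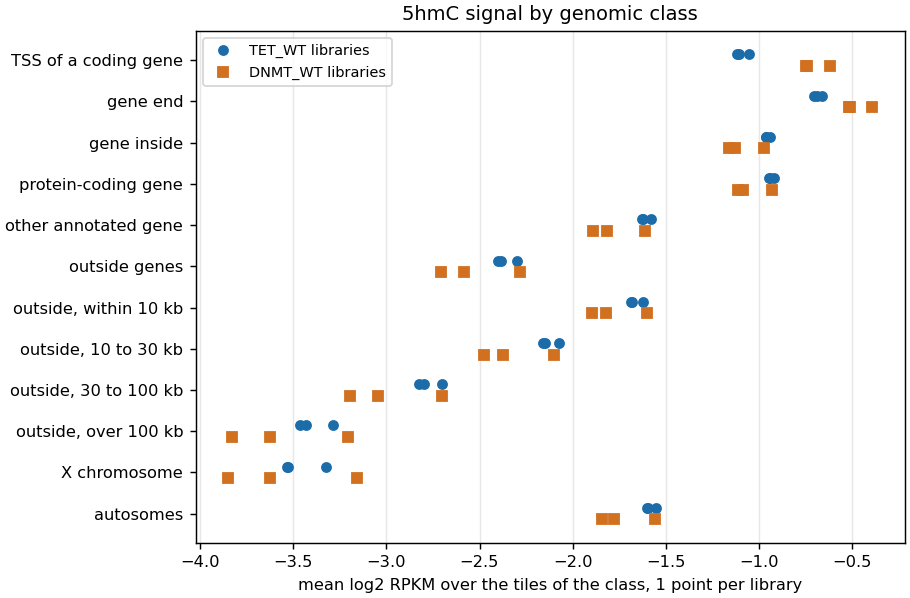
Mean log2 RPKM over the tiles of each genomic class (horizontal axis), with 1 point per library, circles for TET_WT and squares for DNMT_WT. Classes in coding genes lie right of those outside genes in every library, and levels fall with distance from genes to the farthest tiles and the X chromosome. The shallowest library, DNMT_WT replicate 2, has the highest value of its line in every class shown.

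Gene starts as a class did not stand apart from the rest of coding genes in the pooled test. Tiles with the start of a coding gene averaged -1.09 in TET_WT and -0.71 in DNMT_WT, against -0.93 and -1.06 for other coding tiles, a pooled difference of 0.10 ± 0.28 (SD, n = 6, exact permutation p = 0.375, adjusted p = 0.429). The difference was -0.18, -0.13 and -0.17 in the TET_WT libraries and 0.38, 0.32 and 0.35 in the DNMT_WT libraries, so the pooled mean describes neither line.

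Start tiles differed by the CpG content of the promoter. Genes with 5 to 14 CpGs in the 300-base window had the highest start tiles, at -0.14 ± 0.03 in TET_WT and 0.19 ± 0.04 in DNMT_WT, and 62.9% of these tiles were high in both lines. Those with 25 or more had -1.59 ± 0.04 and -0.85 ± 0.07, with 34.0% high and 5.94% low. Those with 15 to 24 had -1.16 ± 0.04 and -0.45 ± 0.04 (SD, n = 3 each). Start tiles of genes with 0 to 4 CpGs averaged -1.99 and -2.07, of which 28.4% were high and 31.3% low. Over all tiles tested 32.3% were high and 25.7% low, so the shares of high tiles in the richest and poorest classes lay near that of all tiles. The profile around the start had a different shape in each class. With 25 or more CpGs the signal dipped at the start and reached 0.14 and 0.23 at 10 kb downstream, against -0.28 and -0.17 at 10 kb upstream. With 5 to 14 CpGs it peaked at the start, against -0.53 and -0.50 at 10 kb downstream. With 0 to 4 CpGs it was -2.14 and -2.23 at 10 kb downstream, close to the start. The median gene of the poorest class stood at percentile 16.3 of the ranking, and the medians of the other 3 classes at 52.9 to 60.3. No test was made between promoter classes.

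**Figure D3:**
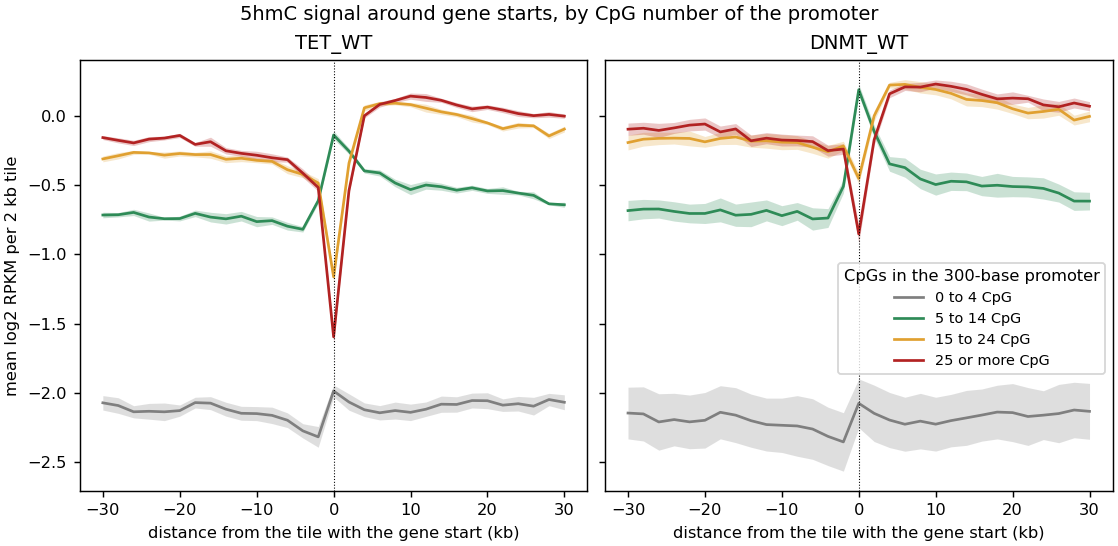
Mean log2 RPKM per tile (vertical axis) by distance from the tile with the gene start (horizontal axis, kb, negative upstream), for 4 classes of CpG number in the promoter, in TET_WT (left) and DNMT_WT (right). Lines are means of 3 libraries and bands are 1 SD. CpG-rich starts dip to -1.59 and -0.85, starts with 5 to 14 CpGs peak at -0.14 and 0.19, and CpG-poor starts stay near -2.

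Among the gene lists, regulators of mesoderm and primitive streak had the highest share of genes high in both lines, 75.0%. Of 20 measured, 15 were high in both lines and 0 low, against 28.8% and 33.0% of all genes, and the list median lay at percentile 83.2 in TET_WT and 90.3 in DNMT_WT. Hand1, a bHLH factor of heart and trophoblast (chr11:57828713-57832147), had 2.41, 2.12 and 2.23 in TET_WT and 3.07, 3.11 and 3.23 in DNMT_WT. Hand2 (2.11 and 2.87), the forkhead gene Foxf1 (1.68 and 2.49), the heart factor Nkx2-5 (1.73 and 2.35), Snai1 (1.85 and 2.23), a driver of epithelial to mesenchymal transition, and the streak homeobox gene Evx1 (1.63 and 2.64) also stood in the top 5% of both lines. Wnt3, the signal that induces the streak, lay near the list median with 1.13 and 1.28. The lowest member, Isl1, had -0.43 and 0.47 and was not called, nor were T, Mixl1, Gsc and Lhx1.

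The trophectoderm and extraembryonic list had 12 of 20 high (60%) and 2 low (10%), against 28.8% and 33.0% of all genes. Its top members were Hand1 again, the homeobox gene Dlx3 (1.94 and 2.54), Tfap2c (1.63 and 2.36), a regulator of trophoblast, and the keratin Krt8 (1.64 and 2.17). Plet1 lay near the median with 1.17 and 1.37. The placental hormone gene Prl3d1 (-3.97 and -4.41) and Tpbpa (-3.48 and -3.56), both markers of differentiated placental cells and members of tandem gene clusters on chromosome 13, were low. Of 28 genes of FGF, Nodal, Wnt, Bmp and Lif signalling 16 were high (57.1%) and 1 low (3.57%), against the same shares of all genes. Fgfr1, the main FGF receptor of the epiblast, had 1.68, 1.89 and 1.79 in TET_WT and 1.95, 2.09 and 1.99 in DNMT_WT. Receptors and transducers such as Acvr1b (1.43 and 1.60), Lifr (1.25 and 1.18), Il6st (1.50 and 1.40) and Tcf7l1 (1.74 and 1.68) were high, and the ligand gene Fgf4 was low with -1.15 and -0.88. Fgf4 lost its call at equal depth, with no tile removed, quantile normalization, a minimum difference of 1, its own chromosome as the level, and without DNMT_WT replicate 1, and the list then had 0 low genes. Without the 2 kb extension 4 of 26 were low. Socs3, near the list median, was high but lost its call in many settings. These were equal depth, the stricter tile filter, linear means, voom, no variance trend and a minimum difference of 1. The same held with no extension and with its own chromosome as the level. It also held without any 1 of 3 libraries (TET_WT replicates 2 and 3 and DNMT_WT replicate 1).

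Genes of naive pluripotency were high more often than low: 10 of 20 were high (50%) and 3 low (15%). Of all genes 28.8% were high and 33.0% low, and no gene of the list was in the top 5% of both lines. The highest was Tcl1, a coactivator of Akt signalling, with 1.46, 1.28 and 1.43 in TET_WT and 1.47, 1.87 and 1.59 in DNMT_WT. Its start tile reached 2.77 and 3.21, and the tiles 4 to 20 kb downstream averaged -0.35 and -0.61. That stretch is fixed whatever the length of a gene, so it can reach beyond a short gene and is not a measure of its body. Klf5, Esrrb, Nr5a2, Dppa3, Prdm14, Nanog, Tbx3, Gbx2 and Tdh were also high, and Klf2 (0.19 and 1.04), near the list median, was not, and had -0.15 relative to the median of its own chromosome. The 3 low members were the core factors Sox2 (-3.05 and -1.73) and Pou5f1 (-2.78 and -1.79), and Nr0b1 on the X chromosome (-2.64 and -2.52). Against the median of its own chromosome Nr0b1 lay 0.13 above. In the formative and primed epiblast list 7 of 20 were high, a share of 35% near the 28.8% of all genes. Only 1 was low, 5% against 33.0% of all genes. The Wnt effector Lef1 (1.54 and 1.84) stood in the top 5% and the signal Fgf8 reached 1.45 ± 0.18 and 2.39 ± 0.12 (SD, n = 3 each). Lefty2, Etv5, Grhl2, Dnmt3a and Dnmt3b were the other high members. The EpiLC markers Fgf5 (-0.12 and -0.03), Otx2 (0.39 and 0.28) and Pou3f1 (-0.03 and 0.21) were not called.

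In the list of DNA methylation machinery 8 of 20 were high (40%) and 1 low (5%), against 28.8% and 33.0% of all genes. With a minimum difference of 1, 4 were high. The 8 high ones were the 6 enzyme genes above, Uhrf1 (1.27 and 1.72), which brings Dnmt1 to replicated DNA, and Tdg (0.63 and 0.92), the glycosylase that removes further oxidised cytosine. Mbd2, near the list median, had 0.64 and 0.41 and was not called.

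The hematopoietic list had 12 of 30 high (40%) and 5 low (16.7%), against 28.8% and 33.0% of all genes. Lyl1, a bHLH partner in blood stem cells, had 1.34, 1.29 and 1.43 in TET_WT and 2.79, 2.96 and 2.73 in DNMT_WT, and Gata2 had 1.34 and 1.92. The surface markers Cd34 (-3.10 and -3.01) and Ptprc (-2.72 and -3.15) were low, as were Ikzf1, Tek and Mecom. Runx1 (0.52 and 0.40) and Tal1 (0.03 and 0.48), which open the blood programme, were not called, nor was Gfi1 near the median (0.07 and 0.97). Endoderm genes were high in 8 of 20 (40%) and low in 1 (5%). Pdx1 of the pancreas reached 1.59 and 2.48, with a start tile of 2.98 and 3.67, Hnf4a near the median had 0.76 and 0.64, and Dab2, an endocytic adaptor, was low with -1.66 and -2.18. Neural genes were high in 7 of 20, or 35.0% against 28.8% of all genes, and low in 0. That count fell to 3 with linear means or voom, 4 with their own chromosomes as the level and 2 of 15 without the extension, and 1 was low with the lowest 10% of tiles removed or without TET_WT replicate 2. Msx1 led that list with 0.69 and 2.10, Lhx2 lay near its median with 0.19 and 0.72, and Neurog2 was lowest with -2.09 and -0.86 and no call.

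Of 20 germline and meiosis genes 7 were high, 35.0% against 28.8% of all genes, 12 were low, against 33.0% of all genes, and 1 was neither. Stra8, the retinoic acid target that starts meiosis, had 1.78, 1.87 and 1.77 in TET_WT and 1.61, 1.69 and 1.62 in DNMT_WT, and Rec8, Tex101, Spo11, Tdrd1, Tdrd9 and Piwil1 were also high. Sycp2, a component of the synaptonemal complex, was lowest with -3.79, -3.53 and -3.90 in TET_WT and -4.05, -3.50 and -3.50 in DNMT_WT. Its start tile carried 2.04 and 2.23, and the tiles 4 to 20 kb downstream -4.36 and -4.21, so among the tiles examined its signal lay at the start. Dazl (-3.51 and -3.20), Sycp1 (-2.70 and -2.65), Asz1 (-2.50 and -3.04) and the X-linked Taf7l (-2.52 and -2.66) were low. Stag3, near the list median, had -1.37 and -0.99. Its call was lost with the mean of linear RPKM, with a minimum difference of 1 or without DNMT_WT replicate 1. With linear means, voom or a minimum difference of 1, 6 of the 20 were low.

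Housekeeping genes were low in 7 of 20 (Hprt, Pgk1, Tbp, Ppia, Sdha, Eef1a1 and Tuba1b), a share of 35.0% near the 33.0% of all genes. They were high in 2, or 10% against 28.8% of all genes. With their own chromosomes as the level 5 were low and 5 high. The lysosomal enzyme Gusb had 1.67 ± 0.04 and 2.13 ± 0.09 (SD, n = 3 each), and Ldha, of glycolysis, 1.46 and 1.85. The X-linked Hprt was lowest with -1.92 and -1.93, at 0.79 above the median of its own chromosome. The chromatin regulators had 5 high (20.8%) and 4 low (16.7%) of 24, with 0 low against their own chromosomes. They ran from Kmt2d (1.31 and 1.96), an H3K4 methyltransferase, to the X-linked demethylase gene Phf8 (-3.24 and -3.11). Of 25 imprinted genes measured of 26, 5 were high (20%) and 3 low (12%), and without the extension 3 of 19 were high and 4 low. Dlk1 led with 0.92 and 1.33, Nnat lay near the median with -0.46 and 0.36, and Snrpn was lowest with -3.66 and -3.57. Airn is not protein-coding in the annotation and was not measured. In the fibroblast and feeder list Fn1 had 1.35 and 1.53, Twist1 -1.39 and -0.24 and Dcn -3.13 and -3.25. Of its 16 genes 4 were high (25%) and 6 low (37.5%), near the shares of all genes. DNA capture gives no expression, so these counts do not measure feeder content.

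**Figure D4:**
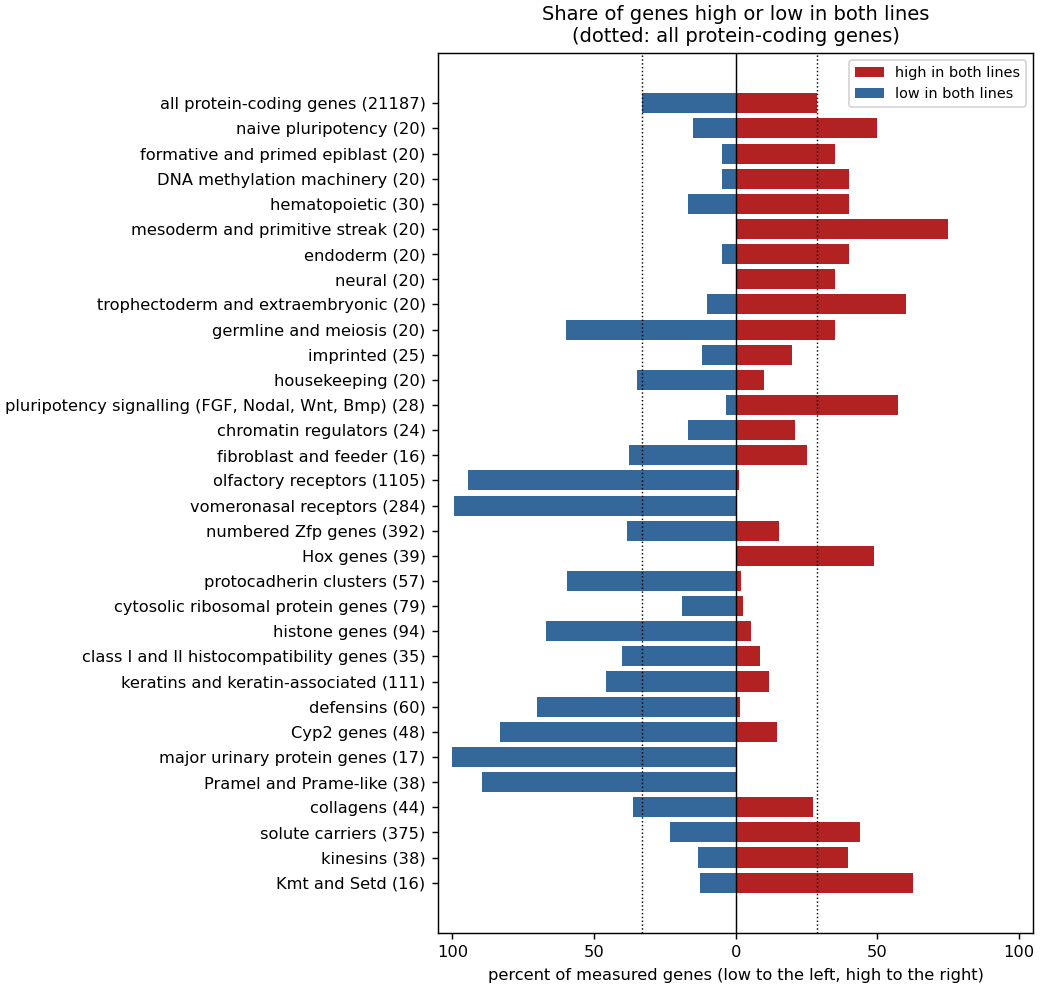
Percent of measured genes high (right, red) and low (left, blue) in both lines for all protein-coding genes, the 14 lists and the 17 families, with the number measured in brackets. Dotted lines mark all genes, at 28.8% and 33.0%. Mesoderm genes reach 75.0% high, and the receptor, urinary protein and Prame-like families 89.5% to 100% low.

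Several large gene families lay at the bottom, beside 33.0% low and 28.8% high over all genes. Of 1105 olfactory receptor genes 1044 were low and 13 high in both lines, with medians of -3.72 in TET_WT and -3.78 in DNMT_WT. Of 284 vomeronasal receptor genes 282 were low and 0 high, of 17 urinary protein genes 17, of 38 Prame-like genes 34, of 60 defensins 42 and of 48 Cyp2 genes of drug and steroid metabolism 40. Olfr283 was an exception, with 2.29, 2.14 and 2.14 in TET_WT and 2.09, 1.85 and 2.23 in DNMT_WT. The family counts rest on tiles that reach beyond short genes: without the 2 kb extension only 133 olfactory receptor genes kept 3 tiles, of which 120 were low in both lines. Against tiles outside genes 399 olfactory receptor genes were low and 77 high. Among the vomeronasal receptor genes Vmn1r1 lay highest, with 0.28 and 1.44 and no call, and among the Cyp2 genes Cyp2w1 was high with 2.01 and 2.30 while Cyp2b9 lay lowest with -3.99 and -4.29.

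Other families showed intermediate patterns, beside 28.8% high and 33.0% low over all genes. Of 94 histone genes 63 were low and 5 high, 39 were low with their own chromosomes as the level, and without the extension 7 remained measured, of which 3 were low. The high ones were the testis variants H2bc1 (1.21 and 1.89) and H2ac1, the oocyte linker histone H1f8, H2al2a and H3f4, and the lowest was H2bc23 at -4.21 and -4.70. Genes named here only to resolve a small count were picked after their values were seen. Among clustered protocadherins, cell adhesion genes of neurons, 34 of 57 were low and 1 high (Pcdhgc5, 0.84 and 1.18). Of 79 cytosolic ribosomal protein genes 15 were low, 62 neither and 2 high, the paralogues Rpl32l and Rpl3l. Numbered zinc finger (Zfp) genes were low in 151 of 392 (38.5%) and high in 60 (15.3%). Collagens were low in 16 (36.4%) and high in 12 (27.3%) of 44, near the shares of all genes. Keratins and keratin-associated genes were low in 51 and high in 13 of 111, but without the extension the order turned over, with 5 low and 15 high of 54. The epithelial keratin Krt42 (2.30 and 2.45) and the cartilage collagen Col2a1 (1.91 and 2.28) led their families. Class I and II histocompatibility genes were low in 14 of 35 and high in 3, H2-Oa (1.21 and 1.88), H2-T24 and H2-T-ps. Hox genes were high in 19 of 39 and low in 0. Hoxa9 had 2.08, 2.11 and 2.15 in TET_WT and 3.10, 3.01 and 3.05 in DNMT_WT, and its neighbours Hoxa7 (2.09 and 3.02) and Hoxa6 (1.97 and 2.80) lay close by in level. Hoxc11 was lowest among Hox genes with -0.91 and 0.75, without a call, and its mean over both lines changed sign with linear means, voom, its own chromosome as the level, or without TET_WT replicate 3 or DNMT_WT replicate 3. Kmt and Setd methyltransferase genes were high in 10 of 16 and low in 2, Kmt2c and Setd5. Kmt2b led them with 1.41 and 1.87. Solute carriers were high in 164 and low in 87 of 375, led by Slc11a1 (2.36 and 2.49), a metal transporter of macrophages. Kinesins, the microtubule motors, were high in 15 and low in 5 of 38, with Kif21b at 1.56 and 1.78 and the X-linked Kif4 at -1.64 and -1.71, 1.04 above the median of its own chromosome.

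Chromosomes differed in level, and both lines shared the 3 highest and the lowest. Chromosome 11 was highest (-1.01 and -1.05), followed by chromosome 8 (-1.10 and -1.20) and chromosome 19 (-1.19 and -1.26), and the X chromosome was lowest (-3.46 and -3.54). The mean of X tiles minus that of autosomal tiles within a library was -1.85 ± 0.15 (SD, n = 6, exact permutation p = 0.03125, adjusted p = 0.0417) and -1.62 at equal depth. Of 903 genes on X 801 were low (88.7%) and 1 was high, the chemokine receptor gene Cxcr3 (0.50 and 0.71). The count of high genes on X was 0 at equal depth, with no variance trend, with a minimum difference of 1 or without DNMT_WT replicate 3. It was 4 with linear means or voom. On chromosome 8, 555 of 1028 genes were high (54.0%), and on chromosome 11, 616 of 1598 (38.5%). Over all genes 28.8% were high and 33.0% low. Of the 747 genes in the top 5% of both lines, 143 (19.1%) lay on chromosome 8, which holds 4.85% of all genes, and 0 on X. Of the 736 in the bottom 5%, 120 (16.3%) lay on X, which holds 4.26% of all genes. When each gene was set against the median of its own chromosome, 235 genes of chromosome 8 were high and 300 low, and 235 of X were high and 243 low. These were 22.9% and 29.2% of the genes of chromosome 8 and 26.0% and 26.9% of those of X. In that setting 27.6% of all genes were high and 31.1% low. The number of copies of these chromosomes in either line was not measured and cannot be told apart from the level of 5hmC per copy.

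**Figure D5:**
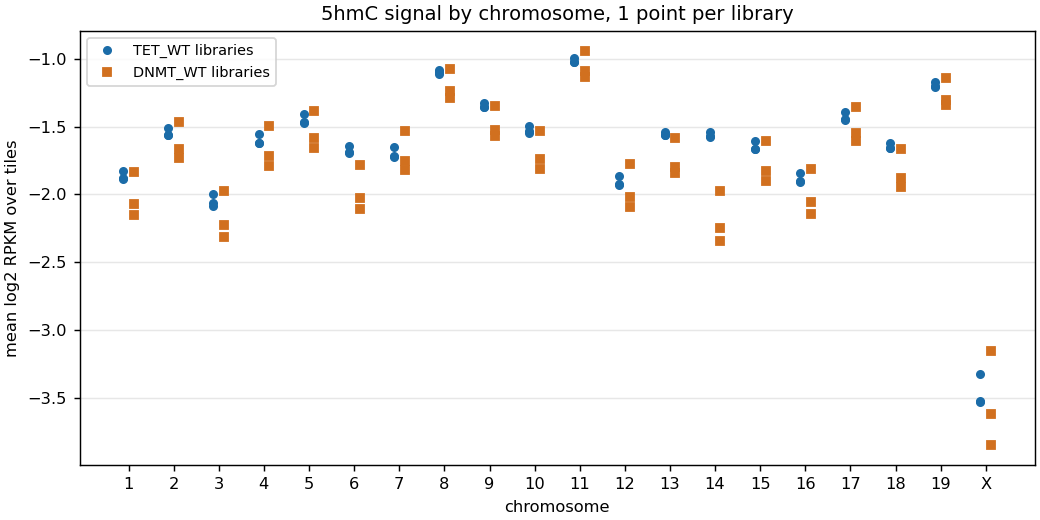
Mean log2 RPKM over the tested tiles (vertical axis) of each chromosome (horizontal axis), 1 point per library, circles for TET_WT and squares for DNMT_WT. Chromosomes 8, 11 and 19 lie highest in both lines, and all libraries place X below every autosome.

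Windows of 1 Mb at the ends of the ranking differed in gene content. Of 2498 windows, 213 were in the top 10% of both lines and 218 in the bottom 10%. The top windows had a median of 64.5% of their tiles in coding genes and 15 genes, the bottom windows 1.46% and 1 gene. The window that led by the worse of its ranks, 2 in both lines, lay on chromosome 8 from base 122000001, at 1.46 ± 0.05 in TET_WT and 1.68 ± 0.02 in DNMT_WT (SD, n = 3 each), with 95.4% of its tiles high in both lines and the genes Banp, Zfpm1, Il17c, Cyba and Piezo1. The window of Foxf1, Foxc2 and Foxl1, developmental forkhead genes, lay 1 Mb upstream at 1.32 and 1.49 although only 35.8% of its tiles are in coding genes. Windows on chromosome 5 from base 114000001 (1.38 and 1.70), chromosome 11 from 116000001 (1.24 and 1.55) and chromosome 17 from 28000001 (1.20 and 1.48) were also among the highest. Of the 218 bottom windows 72 lay on X, as did 72 of the 2067 windows at neither end and 0 of the top windows. The window inside Il1rapl1 led the bottom windows (-4.33 and -4.36). A window of the Dmd gene, which encodes dystrophin, lies wholly within coding genes and had -4.14 and -4.30. On autosomes the lowest included chromosome 14 from base 4000001, a cluster of predicted genes (-4.21 and -4.46), the Ptprd window on chromosome 4 (-4.11 and -4.10) and the Klra receptor cluster of natural killer cells on chromosome 6 (-3.99 and -4.30).

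The 5 highest single tiles, by the worse of their ranks in both lines, all touched protein-coding genes. The tile at chr10:43510001-43512000 in Bend3, a gene for a CpG-island binding repressor, had 4.03, 4.17 and 3.73 in TET_WT and 4.74, 4.73 and 4.93 in DNMT_WT, from 312 to 394 reads and 376 to 952 reads. The other 4 of the 5 highest lay in Elfn2 (3.95 and 4.45), Dyrk3 (3.89 and 4.45), Galnt2 (3.86 and 4.32) and Arhgef18 (3.98 and 4.27), the last 2 on chromosome 8. Before this ranking 1317 tiles with the highest means over the 11 libraries were set aside. Of these, 1175 lie in coding genes and 384 on chromosome 8, and 7 exceeded 6 log2 RPKM in both lines. Of the 1251971 tested tiles 41.8% lie in coding genes and 61797 on chromosome 8. The 1317 tiles set aside had medians of 3.83 in TET_WT and 3.99 in DNMT_WT.

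Gene length and gene density varied along the ranking. The genes in the top 5% of both lines had a median length of 11.6 kb, those in the bottom 5% 3.79 kb, against 17.7 kb over all genes. Of genes under 5 kb 19.3% were high and 50.3% low, of genes of 5 to 20 kb 36.0% and 23.0%, and of genes over 300 kb 5.75% and 71.5%. Over all genes 28.8% were high and 33.0% low. In the highest 10% of the ranking the median gene had 23 genes in its window of 1 Mb and 19 promoter CpGs. In the lowest 10% it had 19 genes and 1 CpG. The change between these ends was not even. From the bottom in steps of 10%, the number of genes was 19, 12, 11 and 12 and then rose to 23. The number of CpGs was 1, 3, 12 and 19 and then stayed at 19 to 20. Olfactory and vomeronasal receptors made up 43.1% of the lowest 10%, and X-linked genes 12.9% of the lowest and 0% of the highest. The difference in mean level between genes of at least 100 kb and genes under 10 kb was -0.00 ± 0.20 over the 6 libraries (exact permutation p = 0.969), positive in all TET_WT and negative in all DNMT_WT libraries. With linear means it was positive in all 6, and with the lowest 10% of tiles removed it was negative in TET_WT replicate 2 as well.

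Genes of other classes, measured in the same way, ranked between these ends. Loci of miRNAs had the highest medians, 0.18 in TET_WT and 0.44 in DNMT_WT over 1174 loci, above protein-coding genes at -0.23 and -0.09. Long non-coding RNA genes had -0.32 and -0.34, transfer RNA genes -1.57 and -0.53, pseudogenes -1.77 and -2.06, and variable segments of antigen receptor genes -3.73 and -3.79. With the 2 kb extension, values of short loci describe their surroundings, and a locus inside a coding gene shares its tiles.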

How the data were processed

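The members and all lists were chosen with earlier results of these data known. The authors deposited log2 RPKM values per 2 kb tile for 11 libraries; columns of other series numbered 0. Per the submitters' processing notes, Trim Galore 0.6.5 with cutadapt 2.3 and Bowtie2 2.4.1 were used on GRCm38; the read counter is not given in the sources used here. All values were whole reads within 0.1%, and a tile without reads was listed at the value of 0.9 reads. Recovered reads were 2.32 times the RPKM denominator in each library, a constant offset within the library.

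Of 1316897 tiles on chromosomes 1 to 19 and X, 63609 without a read in any of the 11 libraries and 1317 with the highest mean (0.1%) were removed. A gene's level was the mean over tiles touching its RefSeq span plus 2 kb on either side (at least 3 tiles). Levels minus the library median entered limma 3.58.1 (R 4.3.3; treat with a variance trend, minimum difference 0.5 log2, 1 mean per line, Benjamini-Hochberg over all genes or tiles). Class means within a library were compared by exact sign-flip permutation over 6 libraries (scipy 1.17.1). The tests were tested on simulated data.

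Named genes were the 12 highest and 12 lowest by the worse of their ranks in both lines, leaving out predicted genes, receptors and genes sharing 50% or more of their tiles with one already named. They also included the 5 highest and lowest with at least 25 tiles, the highest, lowest and near-median member of each list, the highest and lowest of each family, the TET and DNMT genes and the 5 highest tiles. Some genes that this rule names are not reported here. The autosomal low genes, the printed promoters, other members named within lists and the symbol patterns of histone and ribosomal genes were set after values were seen. A promoter window was taken as the most CpG-rich of the gene; chromosome 18 promoters were not used here. Alternatives covered tile filters, linear means, the gene span, the comparison level, the minimum difference, normalisation, model, depth, the replicate block and each library. The own-chromosome level, the restriction to well covered genes, and class differences at equal depth or without chromosomes X and 8 were chosen after seeing the data.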

Additional observations from a re-analysis of the deposited data

Results flagged for a closer look

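With mean log2 values, in 2 class differences every TET_WT library moved one way and every DNMT_WT library the other; the difference between the lines was not tested. Tiles with a gene start lay at -0.16 relative to the rest of coding genes in TET_WT and at 0.35 in DNMT_WT (log2, means of 3 libraries). Genes of at least 100 kb lay at 0.18 relative to genes under 10 kb in TET_WT and at -0.19 in DNMT_WT. With linear means this second difference was positive in all 6 libraries (0.05 to 0.43), so its opposite direction depends on the averaging. Signal also appeared in tiles outside the chromosomes compared. Reads on the Y chromosome made up 0.0249% of a TET_WT library and 0.0282% of a DNMT_WT library on average, and 94.5% to 96.4% of Y tiles had no read. The mitochondrial genome took 0.000324% of the reads in TET_WT and 0.00567% in DNMT_WT.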

How the results depend on the processing

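Against the level of tiles outside genes 15873 genes were high and 1292 low, with 132529 tiles low. With a minimum difference of 1, 3292 genes were high and 214148 tiles low. Other settings kept these counts within 1.5 times. Without 1 library 5924 to 6050 genes were high and 6821 to 6948 low, and 391616 to 405399 tiles high and 274498 to 299714 low. The replicate numbers shared only a number (correlations of deviations 0.04, 0.14 and 0.02), and with the replicate block 6091 genes were high and 6958 low. Leaving out 1 library, class differences ranged from 1.42 to 1.47 (coding minus outside), 0.74 to 0.77 (other genes minus outside), 0.69 to 0.71 (coding minus other genes), -1.90 to -1.81 (X minus autosomes), 0.40 to 0.48 (gene ends minus inside), 1.72 to 1.79 (within 10 kb minus over 100 kb), 0.04 to 0.15 (starts minus rest) and -0.046 to 0.039 (long minus short genes). The last turned positive without any 1 DNMT_WT library, and 5 libraries cannot give an exact p under 0.0625. Long minus short genes was 0.10 with no tile removed, 0.25 with linear means (exact permutation p = 0.03125) and 0.036 without chromosomes X and 8, and starts minus rest was -0.032 with linear means.

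Mean differences of named genes over both lines changed sign as follows, and the cause was not tested. Against tiles outside genes, which lower the comparison level by construction, Tet2 had 2.44, Nr0b1 0.16, Dab2 0.82, Neurog2 1.26, Stag3 1.56, Hprt 0.81, Fgf4 1.72, Twist1 1.93, Rps4x 0.13, Mup5 0.58, Pramel7 2.31, Kif4 1.06 and Kmt2c 1.29. Against the own chromosome Tet2 had 0.13, Nr0b1 0.13, Klf2 -0.15, Hprt 0.79, Hoxc11 -0.46, Rps4x 0.11 and Kif4 1.04. Tet2 had 0.017 and Hoxc11 -0.29 with linear means, and 0.017 and -0.25 with voom. Hoxc11 ranged from -0.038 (without TET_WT replicate 3) to 0.226 (without TET_WT replicate 2) and had -0.021 without DNMT_WT replicate 3. Over all named genes reported and settings 2178 values kept direction and call, 45 lost the call, 22 gained it and 26 changed sign. Stag3 and Fgf4 lost their call without DNMT_WT replicate 1, and Neurog2 and Vmn1r1 gained one without TET_WT replicate 2. Membership of the extreme sets moved more than the counts: of 747 genes in the top 5% of both lines 387 stayed against their own chromosome and 484 without the extension, and of 736 in the bottom 5% 362 stayed without the extension and 395 with no tile removed. At 3 to 7 reads in the median tile, depth limits single tiles and nearly empty genes most.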
